A study of Rattus norvegicus with 5 samples.

Results

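Genes that mark leukocytes were followed in RNA from proximal tubular cells, a preparation of kidney epithelium in which resident or blood-borne immune cells would be a second population. The set held 36 genes, markers of leukocytes in general, of macrophages and monocytes, of natural killer (NK) and cytotoxic cells, of T cells, of B cells and of neutrophils. A gene was taken where a probe set of the array was annotated with that gene symbol alone, which held for 35 of the 36, out of 14506 genes so represented and 29215 probe sets in all. Each of the 35 had a single such probe set, and Cd79a was not analysed here. All 35 were tested, with no filter on dim values.

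The cells came from type I diabetic animals of the Sprague-Dawley strain, were isolated from kidney as proximal tubular cells, and were kept for 2 h with C-peptide (3 arrays) or without it (2 arrays). C-peptide is the segment of proinsulin that is released together with insulin, and diabetes was shared by both groups. The labels number the animals 1 to 3 in the C-peptide group and 1 and 2 in the untreated group. They give no age, no means by which diabetes arose and no scan date, and do not say whether equal numbers are the same animal. A value per animal is 1 array, so the number of arrays limits the precision.

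Macrophages of the kidney lie between the tubules, where they take up debris and secrete the C1q chains that start the classical complement pathway. NK cells and cytotoxic T cells kill by releasing granules that hold perforin and granzymes, and T and B cells recognise antigen through receptors that signal through partner chains with ITAM motifs. In an epithelial preparation such transcripts can come from leukocytes that came along, but their cell source was not measured here. In bulk RNA of this kind, fewer leukocytes and less RNA per leukocyte cannot be told apart.

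The array medians of the deposited intensities ranged from 60.1 to 95.9, so the arrays were brought to 1 distribution by quantile normalisation, and intensities below are these normalised values on the linear scale. Differences are log2(intensity + 16) of C-peptide minus untreated, fitted with limma, and folds on this scale understate the change of dim probe sets. Over the whole array the median of these differences was 0.02. The 12 proximal tubule markers examined, among them Lrp2, Cubn and Slc5a2, were all brighter than the median probe set, so transcripts of the labelled cell type were measured. All 12 had a difference above 0 (median 0.53). Of these, 7 reached an unadjusted p under 0.05 in limma, beside 5.06% of all probe sets that were higher at this threshold. In the intensities as deposited, 3 of the 12 did. Endothelial markers were also measured in every array, and all 11 had a difference below 0, with a median of -1.17. Hbb, a globin of red cells, was at 4056, 2460 and 1197 on C-peptide animals 1 to 3 and at 2777 and 2038 on the untreated animals, so its groups overlapped.

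Leukocyte genes were mostly lower in the cells kept with C-peptide. By list median, the 6 NK and cytotoxic genes of the set were lowest (-0.74) and the 2 B cell genes, of which Ms4a1 was dim, near 0 (0.05). Further NK and cytotoxic genes had a median of -0.29, nearer 0 than further pan-leukocyte (-0.41) and macrophage (-0.34) genes. Members were chosen with earlier results of these data known, and differences between the cell types were not tested. Of the 35 genes, 30 had a difference below 0, beside 46.4% of all probe sets, and their median was -0.43, or 1.35-fold lower. The 3 C-peptide arrays lay below both untreated arrays in 21 genes and above both in 2, beside 13.8% and 16.1% of all probe sets. These 2, Cd27 and Cd79b, had overlapping groups in the intensities as deposited, where the median difference of all probe sets was -0.13. At an unadjusted p under 0.05, 16 genes were lower and 0 higher, beside 6.3% and 5.06% of all probe sets. After Benjamini-Hochberg adjustment over all probe sets, limma called 0 of the 35 at adjusted p 0.05, and 0 of the 29215 (0%). In the intensities as deposited, 1 of the 35, Nkg7, passed at adjusted p = 0.0257 in limma, beside 0.178% of all probe sets. The count of 16 was 6 and 7 once untreated animal 2 or untreated animal 1 was left out, beside 5.27% and 3.57% of all probe sets, and 10 once C-peptide animal 3 was left out, beside 5.21%.

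**Figure D1:**
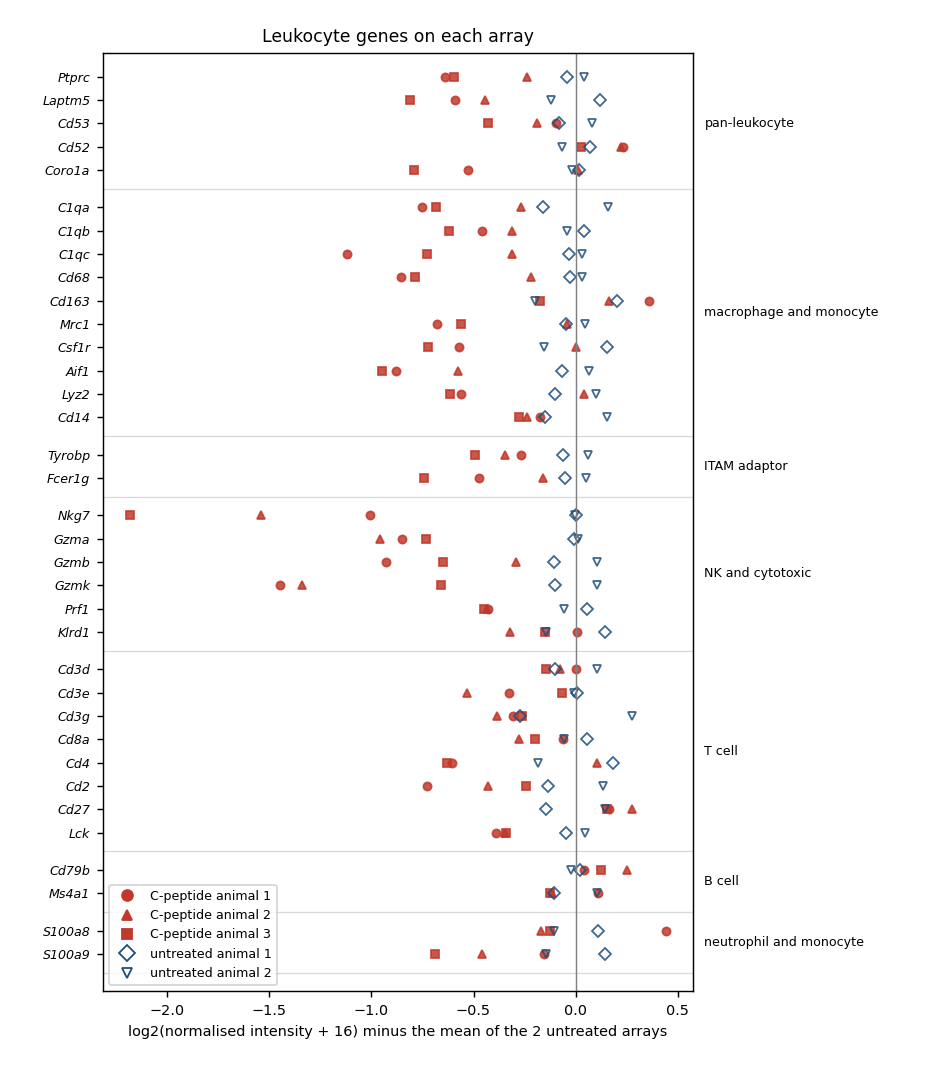
Each of the 35 leukocyte genes on each array, as log2(normalised intensity + 16) minus the mean of the 2 untreated arrays, grouped by cell type (C-peptide filled red, untreated open blue, 1 symbol per animal). The red symbols lie left of both blue ones in 21 genes, farthest for Nkg7 and Gzmk, and right of both in Cd27 and Cd79b.

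Among the members, the 6 genes of NK and cytotoxic cells had the lowest median of the cell types, at -0.74, with all 6 below 0, whereas 13 further genes of these cells had a median of -0.29. Nkg7 encodes a membrane protein of the cytotoxic granule. Its intensity was 323, 218 and 134 on C-peptide animals 1, 2 and 3 and 665 and 663 on untreated animals 1 and 2. All C-peptide arrays were well below both untreated arrays, which nearly coincided. The difference was -1.58 ± 0.31 (SE), or 2.98-fold lower (adjusted p = 0.141 in limma), and ranged from -1.86 to -1.27 when each array was left out.

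Gzmk and Gzma encode granzymes, serine proteases of the granule. Gzmk was at 28.0, 31.4 and 60.0 with C-peptide and at 95.8 and 113 without, a difference of -1.15 ± 0.25 (adjusted p = 0.166 in limma). Gzma was at 44.6, 40.3 and 49.8 with C-peptide and at 92.7 and 94.2 without, a difference of -0.85 ± 0.14 (adjusted p = 0.114 in limma). The arrays of each group lay close together for Gzma, and C-peptide animal 3 was the highest of its group for both genes, whereas it was the lowest for Nkg7. Both probe sets were dimmer than the median probe set.

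Gzmb, the granzyme that activates caspases in the target cell, was at 225, 359 and 277 with C-peptide and at 409.8 and 477 without (difference -0.62 ± 0.21, adjusted p = 0.342 in limma). Granzyme genes resemble each other, and signal from close relatives of Gzmb cannot be separated here. Prf1 encodes perforin, which forms the pore. It was at 67.5, 67.3 and 66.4 with C-peptide and at 101 and 92.1 without, so the groups were apart by more than either group's spread (difference -0.44 ± 0.13, adjusted p = 0.301 in limma). Klrd1, the CD94 subunit of NK receptors, was dim, at 24.6 to 34.98 with C-peptide and 29.9 to 40.05 without, and its groups overlapped.

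**Figure D2:**
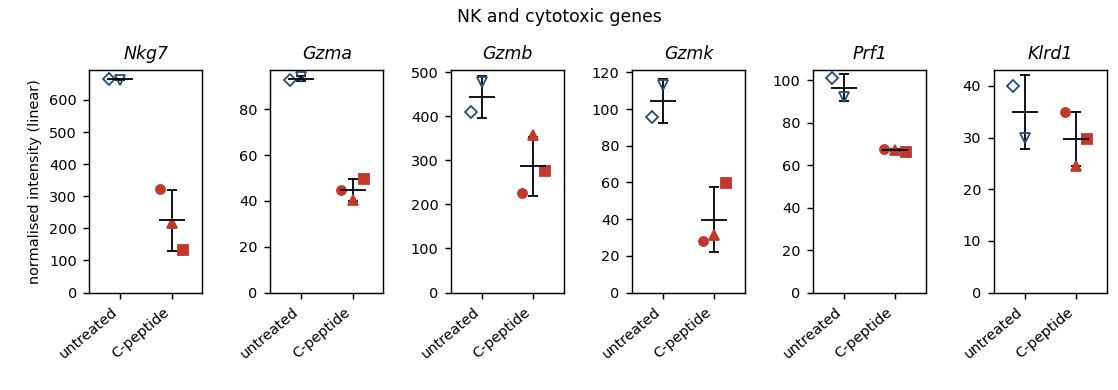
Normalised intensity (linear axes from 0) of the 6 NK and cytotoxic genes on each array, with the group mean (bar) and SD (whiskers) for 2 untreated and 3 C-peptide arrays. The C-peptide arrays lie below both untreated arrays for Nkg7, Gzma, Gzmb, Gzmk and Prf1 and overlap them for Klrd1.

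Macrophage and monocyte genes were next, with 9 of 10 below 0 and a median of -0.45. In 6 of 10 the groups did not overlap, each time with C-peptide lower. The same separation held for 13.8% of all probe sets and for 17.3% of those brighter than the median probe set. Aif1, which encodes the calcium-binding protein Iba1 of macrophages, was at 91.7, 117 and 86.7 with C-peptide and at 173 and 191 without. Its groups were clearly apart, with a difference of -0.80 ± 0.17, or 1.74-fold lower (adjusted p = 0.153 in limma).

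The C1q chains, which are encoded side by side and assemble into 1 complex, were lower together. C1qc was at 195, 354 and 261 with C-peptide and at 433 and 453 without (difference -0.72 ± 0.23). C1qa was at 138, 199 and 145 against 216 and 273 (difference -0.57 ± 0.20), and C1qb at 213, 238 and 189 against 309 and 290.4 (difference -0.46 ± 0.15). In all 3 chains the groups did not overlap and C-peptide animal 2 came nearest to the untreated arrays. Adjusted p values in limma were 0.331, 0.356 and 0.333. Cd68, a lysosomal glycoprotein of macrophages, also had C-peptide animal 2 nearest to the untreated arrays, at 187, 299.5 and 197 against 344 and 359 (difference -0.62 ± 0.21, adjusted p = 0.352 in limma).

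Other macrophage genes overlapped because C-peptide animal 2 reached the untreated range. Csf1r, the receptor for the growth factor CSF-1 on which macrophages depend, was at 363, 548 and 325 with C-peptide, while the untreated arrays were at 610.5 and 489. Mrc1, the mannose receptor, was at 63.5, 108 and 70.3 against 107 and 115. Lyz2, lysozyme, was at 926, 1413 and 890.1 against 1280.2 and 1472, and a related lysozyme gene could add to its signal. The differences of these genes were -0.43 ± 0.24, -0.43 ± 0.21 and -0.38 ± 0.22.

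Cd14, the coreceptor for lipopolysaccharide, was at 439, 420.2 and 409 with C-peptide and at 447 and 555 without, so that the groups were separated by a narrow gap (difference -0.23 ± 0.15). Cd163, the scavenger receptor for haemoglobin complexes, was dim and overlapped, at 30.5 to 51.4 with C-peptide and 29.7 to 44.3 without. Its difference of 0.12 ± 0.21 turned to -0.0068 once C-peptide animal 1 was left out and to -0.084 once untreated animal 2 was.

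Genes shared by all leukocytes had 4 of 5 below 0, with a median of -0.44. Laptm5, a lysosomal membrane protein of blood cells, was at 262, 292 and 223 with C-peptide and at 440.2 and 369.7 without. The groups did not overlap, and the difference was -0.62 ± 0.17 (adjusted p = 0.248 in limma). Ptprc, the phosphatase CD45, was at 379, 507 and 391 against 582 and 618 (difference -0.49 ± 0.17, adjusted p = 0.356 in limma).

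Cd53, a tetraspanin, was at 458, 428 and 359 with C-peptide and at 462 and 519 without, so that C-peptide animal 1 came close to untreated animal 1 (difference -0.24 ± 0.16). Coro1a, an actin-binding coronin of leukocytes, was at 271, 403 and 223 against 404 and 394, and C-peptide animal 2 lay within the untreated range (difference -0.44 ± 0.24). Cd52, a short lipid-anchored surface peptide of lymphocytes, was on the other side of 0 at 0.16 ± 0.15, with overlapping groups.

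The adaptors Tyrobp and Fcer1g carry the ITAM tails through which myeloid and NK receptors signal. Tyrobp (DAP12) was at 115, 108 and 96.1 with C-peptide and at 136 and 149 without, and its groups did not overlap (difference -0.37 ± 0.15, adjusted p = 0.410 in limma). Fcer1g, the Fc receptor gamma chain, was at 483, 603 and 397 against 652 and 702, also without overlap (difference -0.46 ± 0.19, adjusted p = 0.434 in limma).

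T cell genes lay nearer to 0, with 7 of 8 below it, a median of -0.31, and none below -0.5. Each measured chain of the CD3 complex was below 0, without reaching an unadjusted p under 0.05 in limma. Cd3d was dim, at 37.0 to 42.6 with C-peptide and 38.5 to 46.9 without, with a difference of -0.07 ± 0.14 that was 0.031 without untreated animal 2. Cd3e was at 72.1, 60.4 and 89.5 against 95.1 and 94.0, and Cd3g at 79.6, 74.6 and 82.5 against 81.7 and 127. Cd3g overlapped, while Cd3e was separated by less than the spread of the C-peptide arrays, and their differences were -0.31 ± 0.17 and -0.32 ± 0.19.

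Cd2, an adhesion receptor of T and NK cells, was at 64.4, 82.9 and 96.4 with C-peptide and at 105 and 130.1 without (difference -0.47 ± 0.19, adjusted p = 0.416 in limma). Lck, the kinase that phosphorylates the CD3 tails, was at 48.9, 51.0 and 51.1 against 66.2 and 71.9 (difference -0.36 ± 0.13, adjusted p = 0.388 in limma). Groups were apart for both genes, which are also used by NK cells. Cd8a, which rat NK cells carry as well as cytotoxic T cells, was at 58.4 to 70.4 with C-peptide and 70.8 to 77.9 without, and its groups all but touched (difference -0.18 ± 0.14).

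Cd4, the coreceptor of helper T cells that rat macrophages also express, was at 201, 339 and 198 with C-peptide and at 359 and 275 without. C-peptide animal 2 was its highest C-peptide array, as for Csf1r and Lyz2, and the groups overlapped (difference -0.38 ± 0.25). Cd27, a costimulatory receptor of the TNF receptor family on T, NK and B cells, lay on the other side of 0. It was at 76.4, 84.0 and 75.8 with C-peptide and at 58.8 and 75.2 without (difference 0.20 ± 0.15, adjusted p = 0.681 in limma).

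The B cell genes measured had small differences of either sign. Cd79b, the signalling chain of the B cell receptor, was at 165, 193 and 176 with C-peptide and at 162 and 157 without, a difference of 0.14 ± 0.14 in which the C-peptide arrays lay just above the untreated ones. Ms4a1, the CD20 antigen, was dim, at 13.7 to 19.0 with C-peptide and 14.2 and 18.9 without. Its difference was -0.05 ± 0.15, and at this signal a difference in B cells would not be detectable through it.

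S100a8 and S100a9 encode the chains of calprotectin, an abundant protein of neutrophils and young monocytes. S100a8 was dim and overlapped, at 39.5, 20.3 and 21.4 with C-peptide and 28.0 and 21.9 without (difference 0.05 ± 0.22). S100a9 was at 46.7, 34.9 and 27.3 against 61.3 and 47.2, with C-peptide animal 1 next to untreated animal 2 (difference -0.43 ± 0.20, adjusted p = 0.461 in limma). Both probe sets were dimmer than the median probe set.

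Differences were also summarised by brightness. The 22 genes brighter than the median probe set (82.9 by the mean of deposited intensities) had 20 below 0 and a median of -0.45, beside a median of 0.02 for all such probe sets. The 13 dimmer genes, mostly of T cells, NK cells and neutrophils and with Gzmk and Gzma among them, had 10 below 0 and a median of -0.18, so brightness and cell type cannot be told apart here. Among probe sets brighter than the median, 8.58% were lower at an unadjusted p under 0.05 and 17.3% had every C-peptide array below both untreated ones, against 12 and 14 of the 22 genes.

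The genes examined beside the set were further markers of the same cells, 87 of which were measured. In all, 66 of the 87 had a difference below 0, with a median of -0.22, and 23 were lower and 2 higher at an unadjusted p under 0.05, beside 6.3% and 5.06% of all probe sets, to which the counts of the single lists compare as well, while limma called 0 at adjusted p 0.05. Of 19 pan-leukocyte genes all 19 were below 0, with a median of -0.41 and 9 at an unadjusted p under 0.05. Inpp5d, the lipid phosphatase SHIP1, was at 66.1, 128 and 99.5 with C-peptide and at 230.1 and 187 without (difference -1.01 ± 0.25). Dock2, an activator of Rac in leukocytes, had a difference of -0.58 ± 0.16. The groups did not overlap in either of these genes.

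Of 21 further macrophage genes 19 were below 0, with a median of -0.34 and 6 at an unadjusted p under 0.05. Ctss, the lysosomal protease cathepsin S, was at 293, 366 and 377 with C-peptide and at 573 and 575 without (difference -0.72 ± 0.16). Adgre1, the F4/80 antigen, had a difference of -0.63 ± 0.15 and Mpeg1, a pore-forming protein of macrophages, one of -0.64 ± 0.19. The groups were apart in these genes as well.

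Of 13 further NK and cytotoxic genes 11 were below 0, with a median of -0.29, nearer 0 than those of the further pan-leukocyte and macrophage genes, and 4 at an unadjusted p under 0.05. Il2rb, the shared beta chain of the IL-2 and IL-15 receptors, was at 74.6, 82.6 and 105 with C-peptide and at 150.4 and 128 without (difference -0.59 ± 0.17). Tbx21, the T-bet transcription factor, at -0.17 ± 0.17, and Klrg1, an inhibitory receptor, at 0.13 ± 0.16, had overlapping groups. Of 14 further T cell genes 10 were below 0, with a median of -0.13, 3 lower and 1 higher at an unadjusted p under 0.05. The higher one was Cd28, the costimulatory receptor, at 219, 188 and 199 against 153 and 151 (difference 0.37 ± 0.14), while Tcf7, a transcription factor of T cells, was at -0.44 ± 0.16 and Zap70, a kinase of the T cell receptor, at 0.26 ± 0.17.

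The 10 further B cell genes had 8 above 0, a median of 0.03 and 0 at an unadjusted p under 0.05 in either direction. Those brighter than the median probe set were Pou2af1, a B cell coactivator, at 0.26 ± 0.31, and Blnk, a B cell linker protein, at 0.07 ± 0.14. The 10 further neutrophil genes had 5 on each side and a median of 0.01, with 1 lower and 1 higher at an unadjusted p under 0.05. The higher one, Fpr1 (difference 0.89 ± 0.28), was dimmer than the median probe set and is described further below. The lower one was Mmp9, a gelatinase of neutrophils that macrophages and other cells also make. Mmp9 was at 171, 143 and 134 with C-peptide and 368 and 344 without (difference -1.18 ± 0.16, adjusted p = 0.0966 in limma and 0.0410 in the intensities as deposited). No probe set on the array had a smaller adjusted p. The adjustment can give the same value to several probe sets, so this does not rank Mmp9 first. Retnlg, a resistin-like protein of granulocytes, was at -0.29 ± 0.24 and overlapped.

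**Figure D3:**
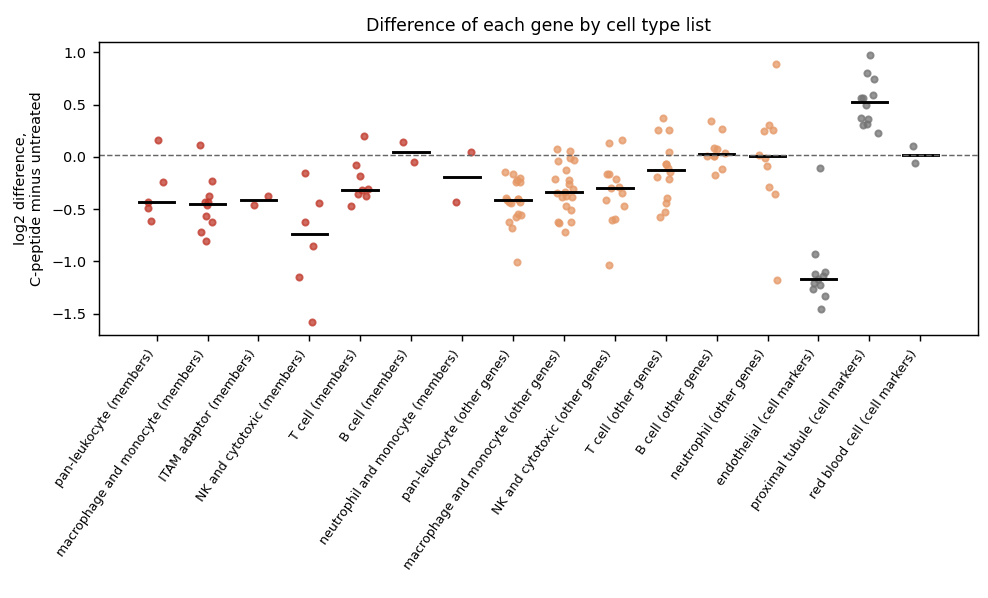
Log2 difference (C-peptide minus untreated) of each gene by list, with members of the set in red, further leukocyte genes in orange and markers of other cells in grey, a black bar at the list median and a dashed line at the median of all probe sets (0.02). NK and cytotoxic members have the lowest median of the leukocyte lists (-0.74), B cell lists lie at 0.05 and 0.03, and endothelial markers lie below all of them at -1.17.

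The 3 C-peptide arrays differed among themselves, and not alike for each cell type. C-peptide animal 2 was the highest of the C-peptide arrays in 8 of 10 macrophage genes and in 15 of 21 further ones, beside 29.3% of all probe sets. The median macrophage gene lay 0.23 below the untreated mean on that array (log2 scale), against 0.63 and 0.65 on C-peptide animals 1 and 3. Endothelial markers had the same order, with C-peptide animal 2 highest in 11 of 11 and medians of -0.74 on that array and of -1.37 and -1.43 on the others. Proximal tubule markers were the reverse, with C-peptide animal 2 lowest at a median of 0.31, against 0.58 and 0.66.

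The cytotoxic genes did not share that order. C-peptide animal 2 was highest in 1 of the 6, C-peptide animal 1 in 3 and C-peptide animal 3 in 2, beside 29.3%, 38.1% and 32.6% of all probe sets. These small counts do not set the 6 genes apart from all probe sets. The medians of the 6 genes on these arrays, in the same order, were -0.70, -0.89 and -0.65. Summed over the set, the normalised intensity was 6536, 8123 and 6058 on C-peptide animals 1, 2 and 3 and 9417 and 9785 on the untreated animals. For the endothelial markers these sums were 8779, 13615 and 8655 with C-peptide and 24626 and 20920 without. The part of endothelial or tubular content in the leukocyte differences was not tested.

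**Figure D4:**
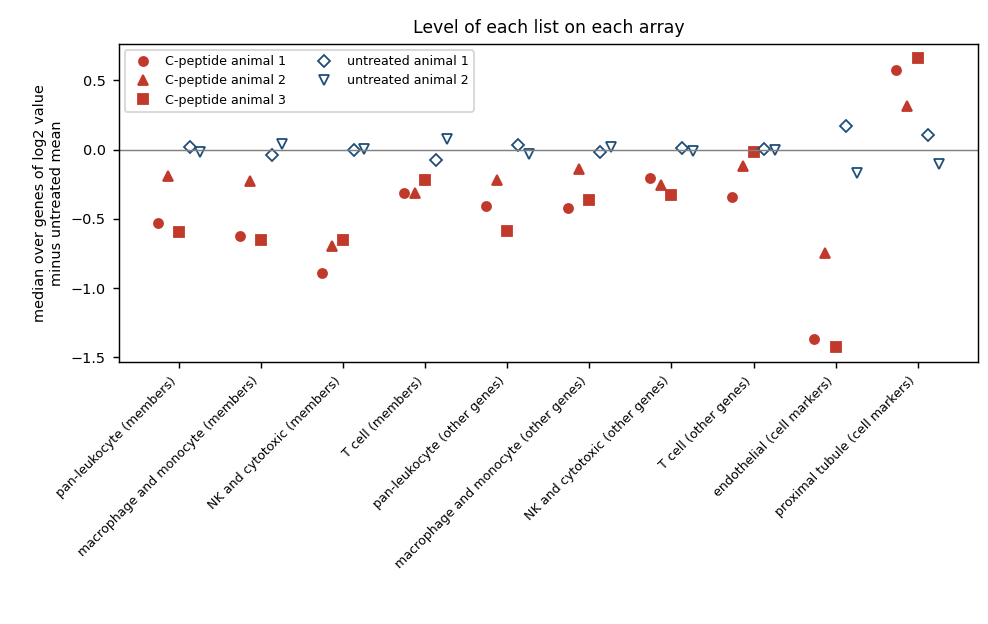
Median over the genes of each list of the log2 value minus the untreated mean, for each array (filled red C-peptide, open blue untreated, 1 symbol per animal). C-peptide animal 2 (triangle) lies nearest the untreated arrays for pan-leukocyte, macrophage and endothelial lists, and among the other C-peptide arrays for the cytotoxic and T cell members.

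Promoters are shown for Nkg7, for a pair of granzyme genes and for a pair of pan-leukocyte genes, picked after the search as examples with and without the motifs. RefSeq gives the start of 27 of the 36 genes in the rat assembly GRCr8, and the 250 bases before it were searched on both strands for the letters GAGGAAG (a PU.1 motif, an ETS factor of myeloid and B cells), TGTGGTT (a Runx motif), AGGTGTGA (a T-box motif) and ATGCAAAT (the octamer). None of these overlaps another in the genes shown. GAGGAAG was present in 5 of the 27, namely Cd53, Laptm5, Mrc1, Cd14 and Csf1r, which is 18.5% beside 10.2% of all 33469 such promoters. TGTGGTT was present in 4, Gzma, Gzmb, Cd2 and Lck, which is 14.8% beside 4.59%. AGGTGTGA and ATGCAAAT were in 0 of the 27, beside 0.959% and 1.56%. The sequences run 5′ to 3′ toward the gene, with motif letters in capitals: CTTCCTC is GAGGAAG, and AACCACA is TGTGGTT, read on the opposite strand.
Laptm5, chr5:148371630-148371879, plus strand: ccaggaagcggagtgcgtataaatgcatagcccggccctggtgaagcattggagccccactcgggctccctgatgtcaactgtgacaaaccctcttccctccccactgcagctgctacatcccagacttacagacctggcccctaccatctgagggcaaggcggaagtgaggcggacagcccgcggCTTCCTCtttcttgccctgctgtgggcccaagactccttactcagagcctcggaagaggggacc
Cd53, chr2:197087897-197088146, minus strand: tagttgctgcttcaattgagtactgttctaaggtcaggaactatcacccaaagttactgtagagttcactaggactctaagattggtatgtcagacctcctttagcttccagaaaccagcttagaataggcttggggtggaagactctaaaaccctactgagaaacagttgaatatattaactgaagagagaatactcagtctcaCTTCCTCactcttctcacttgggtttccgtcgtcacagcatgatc
Gzma, chr2:46485697-46485946, minus strand: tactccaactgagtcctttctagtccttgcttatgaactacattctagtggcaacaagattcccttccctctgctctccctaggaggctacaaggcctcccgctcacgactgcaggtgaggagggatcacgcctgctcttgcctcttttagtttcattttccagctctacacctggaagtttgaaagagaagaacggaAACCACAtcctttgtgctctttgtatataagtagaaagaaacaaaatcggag
Gzmb, chr15:34462470-34462719, minus strand: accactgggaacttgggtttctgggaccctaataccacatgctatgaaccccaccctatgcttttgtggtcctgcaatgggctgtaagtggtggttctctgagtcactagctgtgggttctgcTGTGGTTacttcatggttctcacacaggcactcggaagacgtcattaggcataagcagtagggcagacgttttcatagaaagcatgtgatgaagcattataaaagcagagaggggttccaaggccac
Nkg7, chr1:102981247-102981496, plus strand: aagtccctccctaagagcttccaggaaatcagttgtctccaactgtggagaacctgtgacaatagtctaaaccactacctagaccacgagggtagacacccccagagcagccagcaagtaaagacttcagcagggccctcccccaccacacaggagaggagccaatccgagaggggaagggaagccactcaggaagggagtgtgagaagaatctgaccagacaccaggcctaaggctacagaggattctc
The Laptm5 motif ends 58 bases before the start and that of Cd53 39 bases before it. In Gzma the motif ends 46 bases before the start and in Gzmb 121. Nkg7, the gene with the largest difference of the set, held none of these letters in this window. A match of letters is a description of the sequence, and binding was not measured.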

How the data were processed

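Total RNA of 5 samples was hybridised to a whole-transcript array. The authors summarised probe sets with PLIER and used Affymetrix Expression Console 1.1 (submitters' processing notes), and deposited linear intensities. The sources used here do not give how they corrected background, scaled arrays or filtered. Of the probe sets, 15310 had 1 gene symbol in the platform annotation, 323 several and 13582 none, and symbols were updated through RefSeq (GRCr8). Columns of no sample numbered 0.

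Because array medians differed, intensities were quantile-normalised, taken to log2(value + 16) and fitted by group with limma 3.58.1 under R 4.3.3 (lmFit, then eBayes, a two-sided test), with Benjamini-Hochberg adjustment over all 29215 probe sets. Means are given with SD and differences with SE. A gene was its brightest probe set by mean deposited intensity. All members are named, and of each further list the 3 genes with the smallest p among those brighter than the median probe set. Part of what this rule took is not reported here. The members and lists were chosen with earlier results of these data known, so lists have counts and medians and no test. Each p-value sets a difference against the spread between these arrays, which eBayes moderates toward that of all probe sets.

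On simulated arrays of 29215 probe sets, 50 were changed at each fold, all of them brighter than the median probe set. At adjusted p 0.05 in limma, quantile normalisation recovered 20% of 2-fold and 80% of 3-fold changes, with 4 unchanged probe sets called. Unnormalised arrays gave 38% and 98%, with 76 unchanged probe sets called. Recovery of dimmer probe sets, such as those of Gzma and Gzmk, was not simulated. The alternatives were other normalisations, pseudocounts, filters, variance priors, array weights, the animal number as a block, gene means, another threshold and leaving out each array.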

Additional observations from a re-analysis of the deposited data

How the results depend on the processing

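The number of probe sets past adjusted p 0.05 in limma was 0 as reported, with 3317 at an unadjusted p under 0.05. It was 52 in the intensities as deposited, 29 after centring each array, 1 and 118 at pseudocounts of 1 and 64, 393 among the probe sets brighter than the median alone, 207 with a trended and robust prior, 54 at adjusted p 0.1, and 0 with array weights and without any of the 5 arrays (0 to 0). Of the 35 leukocyte genes 0 passed as reported and without any of the 5 arrays (0 to 0). As deposited 1 passed (Nkg7), among brighter probe sets 2 (Nkg7 and Aif1), and with 1 value per gene, where 14506 genes were tested, 4 (Nkg7, Gzma, Gzmk and Aif1). Their median difference of -0.43 was -0.29 at a pseudocount of 64 and -0.49 to -0.32 without single arrays. The count of 16 leukocyte genes lower at an unadjusted p under 0.05, whose alternatives were chosen after seeing the data, was 6 to 18 without single arrays (3.57% to 6.56% of all probe sets), and 14 to 17 under every other alternative on all 35 genes except the block (5.5% to 8.33% of the features tested).

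With the animal number as a block, the median was -0.32, 10 leukocyte genes were lower at an unadjusted p under 0.05, beside 5.44% of all probe sets, and 0 probe sets and 0 of the 35 passed adjusted p 0.05. Number 3 has a C-peptide array only, so the block leaves that array out of the difference. The median and count were accordingly close to those without C-peptide animal 3, at -0.32 and 10. The labels do not say that equal numbers are the same animal, and deviations from the group means correlated across probe sets at r = -0.02 for number 1 and 0.01 for number 2, and with 2 untreated arrays these values carry little weight. Whether the numbers pair the arrays is not known, and they were not treated as pairs.

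Among single genes, directions turned for those near 0. Ms4a1 was at 0.0055 as deposited and 0.041 after centring, and S100a8 at -0.045 with array weights. Without single arrays, Ms4a1 ranged from -0.15 to 0.059, S100a8 from -0.15 to 0.16, Cd163 from -0.084 to 0.31 and Cd3d from -0.18 to 0.031. In the intensities as deposited the median difference of all probe sets was -0.13, and values are relative to it. Signal over background limits the dim probe sets, among them those of Ms4a1, S100a8 and Klrd1.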

Other observations

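Of the 87 further leukocyte genes, 38 had every C-peptide array below both untreated arrays and 6 had every one above, beside 13.8% and 16.1% of all probe sets. Those named next lie outside the naming rule and were chosen after their values were seen. Icos, an inducible costimulator of T cells, was at 54.6, 50.01 and 50.1 with C-peptide animals 1, 2 and 3 and at 81.7 and 80.7 with untreated animals 1 and 2 (difference -0.52 ± 0.13, adjusted p = 0.213 in limma). Il7r, the receptor for interleukin 7 on lymphocytes, was at 34.6, 32.6 and 26.9 against 54.2 and 54.4 (difference -0.57 ± 0.14, adjusted p = 0.213 in limma). The NK receptor Klrk1 (NKG2D) was at 39.0, 71.2 and 53.0 against 90.0 and 88.8. Klrc1, the NKG2A partner of Klrd1, was at 21.2, 14.6 and 25.5 against 91.1 and 35.3, so its untreated arrays differed widely. The 6 on the other side were Cd28, Fpr1, Fcrla (0.34 ± 0.15), Cxcr2 (0.30 ± 0.16), Ctla4 (0.25 ± 0.21) and Elane (0.25 ± 0.15). In the intensities as deposited, only Fpr1 among these 6 had groups that did not overlap. Fpr1, the formyl peptide receptor of neutrophils and monocytes, was at 108, 57.7 and 106 with C-peptide and 30.2 and 51.4 without (difference 0.89 ± 0.28, adjusted p = 0.303 in limma).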
